A study of Homo sapiens with 8 samples.

Results

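KYSE70 cells exposed for 72 h to 20 nM mitoxantrone were set directly against KYSE70 cells exposed for 72 h to 10 µM pyrimethamine. KYSE70 is a long-cultured line from a human squamous cell carcinoma of the esophagus. By their treatment labels, 5 of the 8 RNA-seq libraries of the series belong to this comparison, 3 with mitoxantrone and 2 with pyrimethamine. The other 3 libraries are untreated cells of the same line and growth medium, and their values stand beside the results as a baseline. The labels name no vehicle for the untreated cells, 1 dose per compound and no separate cultures, so the p-values measure the spread between these libraries, which may be technical. Pyrimethamine replicate 2 carries the number 3 in its column name and the number 2 in its title.

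Mitoxantrone is an anthracenedione that intercalates into DNA and traps type II topoisomerases on it, leaving DNA breaks, and it is a classical cargo of the exporter ABCG2. Pyrimethamine is an antifolate used against the parasites of malaria and toxoplasmosis. The series title calls both compounds inhibitors of NRF2, the transcription factor encoded by NFE2L2 that switches on antioxidant and detoxification genes when its repressor KEAP1 lets it go. Squamous carcinomas of the esophagus commonly carry an overactive form of this pathway.

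Values are normalised read counts, that is, the authors' gene counts divided by a size factor per library, and differences are mitoxantrone minus pyrimethamine on the log2(value + 1) scale. The 5 libraries held 17555689 to 23350504 reads. All 15 squamous epithelium markers were measured above the filter, and their summed values were 106900 to 111000 with mitoxantrone, 108700 and 116800 with pyrimethamine replicates 1 and 2, and 139200 to 147700 in untreated cells. The leukocyte marker PTPRC and the endothelial marker PECAM1 stayed at 11.99 or lower in every library, whereas CD68, a lysosomal marker of macrophages, was 97.7 to 136 in the 5 treated libraries, and VWF, the endothelial clotting factor, was 77.8 to 340 there. Over all 9 leukocyte markers the sums were 134 to 167 with mitoxantrone, 145 and 111 with pyrimethamine and 57.0 to 68.4 in untreated cells, and over all 8 endothelial markers 139 to 231 with mitoxantrone, 397 and 201 with pyrimethamine and 97.4 to 103 in untreated cells. Their part in the results was not tested. The fibroblast marker COL1A2 was 213 in pyrimethamine replicate 2 and at most 28.0 in every other library.

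The 2 pyrimethamine libraries lay far apart. The median gene differed between them by 0.90 log2 units in size, against 0.17 to 0.24 between mitoxantrone libraries and 0.12 to 0.13 between untreated libraries. Replicate 2 was the nearer of the pair to the mitoxantrone mean for 13099 of 15350 tested genes (85.3%), and for 10798 (70.4%) it lay between that mean and replicate 1. The size of the median difference was accordingly 1.28 log2 units against pyrimethamine replicate 1 and 0.45 against replicate 2, with 9306 and 2035 genes at least 2-fold away. Genes are therefore described with their value in, or their difference against, each pyrimethamine library, and the plot of gene lists gives each list's median against each.

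Of the 15350 genes whose value averaged 10 or more across all libraries, 6299 (41.0%) passed the limma test at an adjusted p under 0.05. Of these, 3247 (21.2%) were higher and 3052 (19.9%) lower with mitoxantrone. Under upper-quartile scaling the split was 4103 higher and 2095 lower, and with edgeR on recovered reads it was 2512 and 4201. All 3 mitoxantrone libraries lay above both pyrimethamine libraries for 5045 genes (32.9%) and below both for 4669 (30.4%), together 63.3% of those tested. A stricter reading asks for at least a 2-fold difference from each pyrimethamine library, and it left 951 genes higher (6.20%) and 757 lower (4.93%). The counts that follow, against 1 pyrimethamine library by itself, come from fits that hold no spread within that group. They use the spread of the other groups only and cannot show how many genes differ between the compounds. Against pyrimethamine replicate 1 by itself 5832 genes were higher and 5806 lower (75.8% in all), and against replicate 2 by itself 2922 were higher and 2493 lower (35.3%).

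The limma counts with both pyrimethamine libraries rest on a spread estimated over all 8 libraries. Without mitoxantrone replicate 1 none of the genes passed (0, with 6383 at an unadjusted p under 0.05, by limma), without mitoxantrone replicate 2 only TXNIP and H2AC11 did, and without mitoxantrone replicate 3 there were 2568. Leaving out an untreated library left 2136 to 2466 calls. In a fit with estimated library weights, both pyrimethamine libraries had the same weight of 0.082, against 0.82 to 3.80 for the other libraries. With 2 libraries in a group their weights cannot differ, so this fit cannot tell which of them is the outlier. It gave 812 genes higher (5.29%) and 72 lower (0.469%), and the text calls it the weighted fit.

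**Figure D1:**
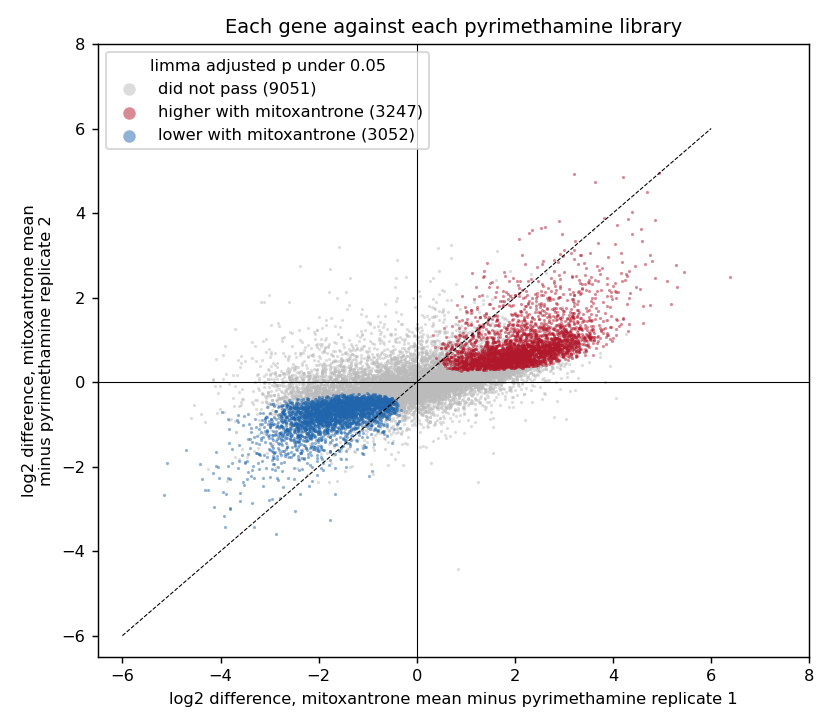
Log2 difference of each of the 15350 tested genes between the mean of the 3 mitoxantrone libraries and pyrimethamine replicate 1 (x axis) or replicate 2 (y axis), coloured by the limma call. The cloud is stretched along the x axis, with median sizes of 1.28 and 0.45 log2 units; the dashed line marks equal differences.

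TXNIP and ARRDC4, paralogous arrestin-domain genes known as brakes on glucose uptake, stood at several times their pyrimethamine level in all mitoxantrone libraries. TXNIP measured 4339, 4154 and 4310 with mitoxantrone, against 566 and 781 with pyrimethamine replicates 1 and 2, and averaged 2416 ± 127 in untreated cells (SD, n = 3). The groups did not overlap, and untreated cells lay between the compounds. The difference was 2.68 ± 0.18 log2 units (SE, adjusted p = 0.00277), the smallest adjusted p of the comparison together with that of H2AC11, and it was 2.91 against pyrimethamine replicate 1 and 2.45 against replicate 2. TXNIP kept its call in the weighted fit (adjusted p = 0.0141), whereas without mitoxantrone replicate 1 its adjusted p was 0.0508. ARRDC4 followed with 553, 733 and 712 in mitoxantrone libraries, against 172 and 219 in pyrimethamine libraries, a difference of 1.76 ± 0.20 log2 units (adjusted p = 0.0133, and 0.0523 in the weighted fit). Both genes are textbook targets of the glucose-sensing factors MondoA and ChREBP, which bind paired E-box motifs.

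The promoter windows of TXNIP and ARRDC4 are shown with their matches to the paired E-box and to the single E-box CACGTG. Each is the 250 bases before the start in RefSeq on GRCh38.p14, 5′ to 3′ on the gene's own strand. Capitals mark the paired E-box in the first, which is CACGNG on either side of any 5 bases (chr1:145996580-145996829, minus strand). In the second they mark the E-box CACGTG (chr15:97960453-97960702, plus strand). Both forms were searched on both strands of each window.
TXNIP: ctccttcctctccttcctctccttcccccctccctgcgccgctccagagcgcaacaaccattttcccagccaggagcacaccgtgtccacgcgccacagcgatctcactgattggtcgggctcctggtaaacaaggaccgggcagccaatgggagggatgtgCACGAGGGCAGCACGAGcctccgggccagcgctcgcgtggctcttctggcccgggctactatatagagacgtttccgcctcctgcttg
ARRDC4: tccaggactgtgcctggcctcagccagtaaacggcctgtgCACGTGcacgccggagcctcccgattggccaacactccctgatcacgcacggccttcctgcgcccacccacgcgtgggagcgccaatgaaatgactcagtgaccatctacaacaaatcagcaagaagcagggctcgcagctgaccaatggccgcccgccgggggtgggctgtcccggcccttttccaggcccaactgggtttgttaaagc
The TXNIP window held 1 paired form and 0 CACGTG, and the ARRDC4 window held 0 paired forms and 1 CACGTG. The paired form occurred in 16 of 27305 promoter windows (0.0586%) and CACGTG in 1772 (6.49%). A match describes the letters and is no measure of binding.

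In the glycolysis and hypoxia list, which holds both genes, 8 of 35 tested members were higher and 10 lower, against 21.2% and 19.9% of all tested genes. Its median difference was 0.23, against -0.02 over all tested genes, and it turned to -0.26 under quantile normalisation and to -0.47 under cyclic loess. ADM, the vasodilator peptide adrenomedullin, was among the higher members with 1634, 1781 and 1540 in mitoxantrone libraries, against 570.3 and 799 in pyrimethamine libraries (1.29 ± 0.19 log2 units, adjusted p = 0.0164). VEGFA, the vascular growth factor, was lower, with 349.9, 319 and 321 in mitoxantrone libraries, against 626 and 515 in pyrimethamine libraries (-0.78 ± 0.16 log2 units, adjusted p = 0.0219).

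Replication-dependent histone genes together took more of the reads with mitoxantrone, a sum in which the most abundant member, H2BC12, weighs most. Over all 58 in the table, with no filter, they held 0.0582%, 0.0588% and 0.0656% of reads in mitoxantrone libraries, against 0.0154% and 0.0235% in pyrimethamine libraries and 0.0119% to 0.0131% in untreated libraries (exact two-sided permutation p of 0.2, the smallest that 10 regroupings allow). These genes supply the histones that package new DNA in S phase, and their messenger RNAs normally end in a stem-loop in place of a poly(A) tail. Of the 58, 34 fell below the filter and 24 were tested. Of the 24, 23 were higher and 0 lower, against 21.2% and 19.9% of all tested genes. Since the mitoxantrone libraries hold the high values, a member could pass the filter through them, so this count describes the members that passed and supports nothing about the rest. The median difference was 2.57 log2 units, with 3.14 against pyrimethamine replicate 1 and 1.92 against replicate 2, and 5 members kept the call in the weighted fit. After adjustment for transcript length the median over 23 members with a length was 1.71, with 19 higher and 0 lower. Histone copies are nearly identical in sequence, so reads assigned to single copies are uncertain.

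H2AC11 shared the smallest adjusted p of the comparison with TXNIP. It measured 390.3, 374 and 394 with mitoxantrone, against 48.0 and 48.3 with pyrimethamine, and averaged 42.9 ± 1.6 in untreated cells (SD, n = 3). Both pyrimethamine libraries sat at the untreated level, and the difference was 2.98 ± 0.20 log2 units (adjusted p = 0.00277; 0.0324 in the weighted fit; 0.0508 without mitoxantrone replicate 1). H2BC5 came to 773, 803 and 845 in mitoxantrone libraries, against 125 and 171 in pyrimethamine libraries (2.46 ± 0.20, adjusted p = 0.00474).

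The most abundant histone transcript was that of H2BC12, named after its value was seen, with 8045, 8409 and 8963 in mitoxantrone libraries, against 1303 and 2868 in pyrimethamine libraries (2.13 log2 units, adjusted p = 0.0158). The linker histone gene H1-2, also named after its value was seen, had 1971, 2145 and 2054 in mitoxantrone libraries, against 212 and 566 in pyrimethamine libraries (2.57 log2 units, adjusted p = 0.0157). H2AC17, H2AC8, H2BC11, H4C8 and H2BC4 were among the 12 largest called differences, at 3.24 to 4.43 log2 units. That ranking took genes with a mean of at least 100, no overlap and no clone, locus or uncharacterised symbol. H2AC20 was the tested member that did not pass, with 11.96, 18.1 and 18.8 in mitoxantrone libraries, against 3.43 and 20.6 in pyrimethamine libraries and 48.7 to 55.1 in untreated libraries.

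**Figure D2:**
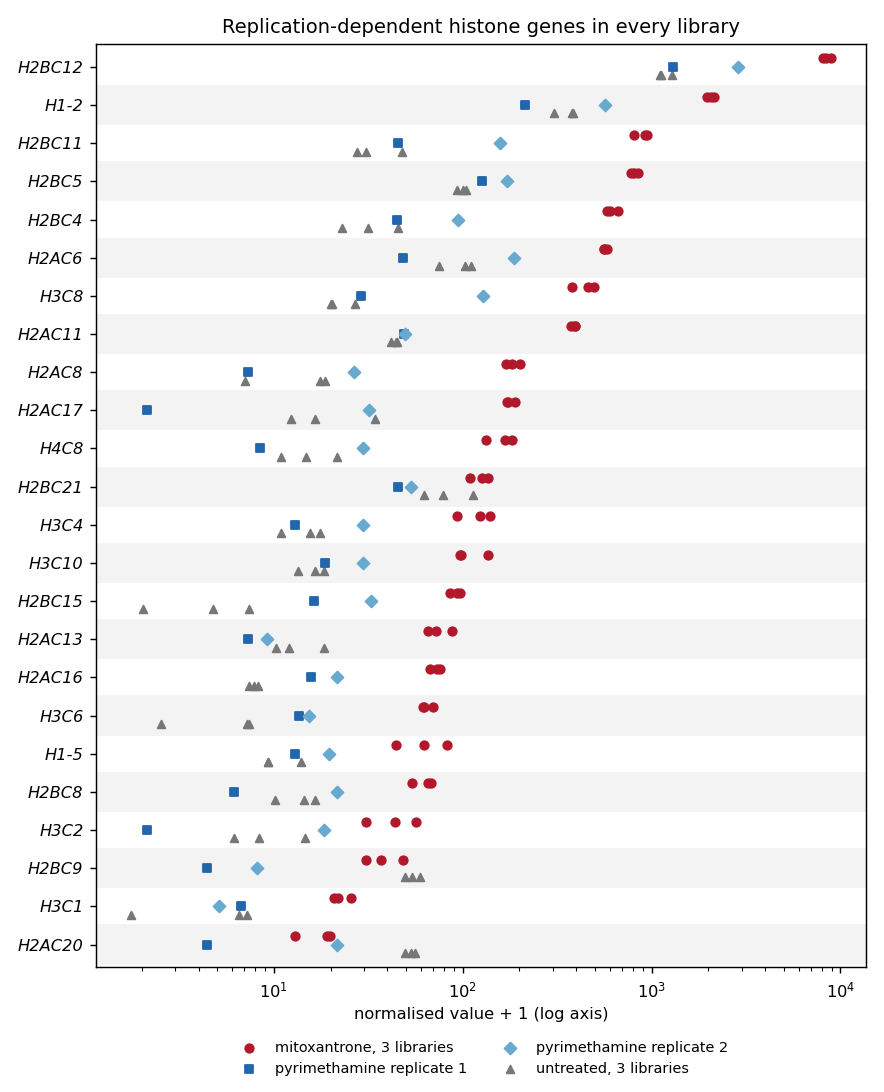
Normalised value + 1 (log axis) of the 24 tested replication-dependent histone genes in every library, ordered by their mitoxantrone mean. For 23 genes the 3 mitoxantrone points lie to the right of both pyrimethamine points, and H2AC20 is the exception. This order held for 32.9% of all tested genes. Members could pass the filter through high mitoxantrone values, so the count describes the tested members only.

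Histone genes of the H2A and H2B classes are often arranged head to head, so that a pair shares its promoter. H2AC11 (chr6:27133042-27135291, plus strand) and H2BC11 (chr6:27125897-27132750, minus strand) form such a pair on GRCh38, and so do H2AC6 (chr6:26124145-26139116, plus strand) and H2BC4 (chr6:26114873-26123926, minus strand). H2BC11 measured 809, 943 and 923 in mitoxantrone libraries, against 44.5 and 156 in pyrimethamine libraries. H2BC4 measured 662, 578 and 601 in mitoxantrone libraries, against 44.0 and 93.6 in pyrimethamine libraries. Every member of both pairs was therefore higher in each mitoxantrone library, with H2AC6 at 580.2, 559 and 563 in mitoxantrone libraries, against 47.4 and 186 in pyrimethamine libraries.

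The promoter windows shared by these pairs are shown for their octamer ATTTGCAT, the site of OCT1 that is known from H2B promoters, and for CCAAT boxes. They are the 250 bases before the start of the H2A gene in RefSeq on GRCh38.p14, plus strand, at chr6:27132793-27133042 and chr6:26123922-26124171. Capitals mark both motifs, searched on both strands, so that they also appear as ATGCAAAT and ATTGG; the motifs share no letters in these windows.
H2AC11: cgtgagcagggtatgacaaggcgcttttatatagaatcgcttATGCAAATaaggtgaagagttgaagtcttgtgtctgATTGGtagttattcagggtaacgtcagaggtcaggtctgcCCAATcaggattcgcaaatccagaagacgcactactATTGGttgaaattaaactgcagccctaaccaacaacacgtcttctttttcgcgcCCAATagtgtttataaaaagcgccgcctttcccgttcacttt
H2AC6: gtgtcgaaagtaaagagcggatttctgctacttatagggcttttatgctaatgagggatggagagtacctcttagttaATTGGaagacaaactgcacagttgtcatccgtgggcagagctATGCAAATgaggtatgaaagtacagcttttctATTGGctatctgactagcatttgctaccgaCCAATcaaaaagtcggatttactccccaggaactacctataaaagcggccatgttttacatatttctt
The windows held 1 octamer each, with 4 CCAAT boxes in the first and 3 in the second. Among the 24 tested histone genes the octamer stood in 13 windows, namely 6 of 7 H2A genes, 6 of 8 H2B genes, 1 of 6 H3 genes, 0 of 1 H4 gene and 0 of 2 H1 genes, and in 1.66% of all 27305 windows. CCAAT stood in 23 of the 24, and in 33.0% of all windows.

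Beside the histone genes, the largest called increases included a pair of neighbours on chromosome 12. CCDC63, a coiled-coil gene known from sperm flagella (chr12:110846769-110907535, plus strand, GRCh38), measured 233, 296 and 178 in mitoxantrone libraries, against 7.99 and 9.26 in pyrimethamine libraries and 1.90 ± 1.18 in untreated cells (SD, n = 3). MYL2, the regulatory light chain of cardiac myosin, lies beside it (chr12:110910819-110920722, minus strand) and measured 235, 319 and 202 in mitoxantrone libraries, against 6.28 and 46.3 in pyrimethamine libraries. Neither group overlapped for either gene, and the differences were 4.59 ± 0.45 log2 units for CCDC63 (adjusted p = 0.0122) and 3.74 ± 0.71 for MYL2 (adjusted p = 0.0192). RN7SK, the noncoding RNA that holds the elongation factor P-TEFb inactive and has many near-identical copies in the genome, was also higher, with an uncertain level of 479, 223 and 174 in mitoxantrone libraries, against 13.7 and 35.998 in pyrimethamine libraries (3.51 ± 0.66, adjusted p = 0.0192). In the weighted fit these 3 genes had adjusted p of 0.119, 0.105 and 0.2798.

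Short, abundant housekeeping messages made up the largest blocks of genes higher with mitoxantrone. Of 85 tested cytosolic ribosomal protein genes, 77 were higher and 0 lower (90.6% against 21.2% of all genes), with a median difference of 2.00 log2 units, 3.12 against pyrimethamine replicate 1 and 0.84 against replicate 2. In the weighted fit 66 remained higher, under quantile normalisation 16 were higher and 1 lower (median 0.93), and under cyclic loess 49 and 4 (median 0.57). RPL11, a large-subunit protein that also binds MDM2, measured 43653, 40860 and 35098 in mitoxantrone libraries, against 5762 and 18175 in pyrimethamine libraries (1.96 ± 0.45, adjusted p = 0.0230). Ribosomal protein genes have many processed pseudogenes, so single levels are uncertain. Together they took 18.3%, 18.8% and 17.1% of reads in mitoxantrone libraries, against 4.25% and 13.1% in pyrimethamine libraries and 10.3% to 10.5% in untreated libraries. The 3 mitoxantrone shares were the 3 highest, and the mean difference of 9.40 percentage points, which was 4.96 without pyrimethamine replicate 1 and 13.8 without replicate 2, had an exact two-sided permutation p of 0.2, the smallest that 10 regroupings allow. In bulk RNA fewer cells of a kind and less RNA per cell cannot be told apart.

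Subunits of the respiratory chain, of the mitochondrial ribosome and of the proteasome were also more often higher than lower, for the proteasome not under every scaling. Among nuclear genes of oxidative phosphorylation 64 of 80 were higher (80.0%) and 0 lower (median 1.73). Mitochondrial ribosomal proteins had 55 of 77 higher (71.4%) and 0 lower (median 1.44). Proteasome subunits had 20 of 37 higher (54.1%) and 2 lower (5.41%, median 1.03), against 21.2% and 19.9% of all tested genes. Quantile normalisation left 15 higher and 1 lower, 29 and 0, and 3 and 5 in these lists, with medians of 1.22, 1.21 and 0.68, and cyclic loess 57 and 1, 54 and 0, and 13 and 6. COX6C, a subunit of cytochrome c oxidase, measured 12100, 12528 and 11736 in mitoxantrone libraries, against 1399 and 5261 in pyrimethamine libraries (2.16 ± 0.46, adjusted p = 0.0221). PSMA4, a core particle subunit, measured 29735, 29712 and 25719 in mitoxantrone libraries, against 5081 and 14823 in pyrimethamine libraries (1.71 ± 0.41, adjusted p = 0.0241). The members that went the other way, PSMD1 and PSMD11, were named after their values were seen and belong to the regulatory particle, at -0.78 (-1.12 and -0.44 against replicates 1 and 2) and -0.63 log2 units (-0.57 and -0.70). Against pyrimethamine replicate 2 by itself the medians were 0.74, 0.58 and 0.35 for the 3 lists in the same order.

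Large genes of chromatin and transcription lay on the other side. Of 43 tested large chromatin modifiers 15 were lower (34.9%, against 19.9% of all tested genes) and 0 higher. Their median was -1.30 log2 units, -2.24 against pyrimethamine replicate 1 and -0.33 against replicate 2. NSD2, a histone H3 lysine methyltransferase, measured 274, 280.2 and 341 in mitoxantrone libraries, against 1873 and 529 in pyrimethamine libraries (-1.74 ± 0.44, adjusted p = 0.0254), and SETD1A, another lysine methyltransferase, had a difference of -1.70 ± 0.41 (adjusted p = 0.0241), with -2.39 and -1.02 against replicates 1 and 2. Of 337 tested zinc finger genes with ZNF symbols 90 were lower (26.7%) and 16 higher (4.75%), against 19.9% and 21.2% of all tested genes. The median of the ZNF genes was -0.54, with -0.88 and -0.25 against replicates 1 and 2. ZNF865 measured 100.2, 101 and 137 in mitoxantrone libraries, against 416 and 340.4 in pyrimethamine libraries (-1.75 ± 0.21, adjusted p = 0.0141). In the weighted fit 1 of the chromatin modifiers and 1 of the ZNF genes stayed lower.

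Transcript length ran along this division. In the shortest of 4 equal classes of transcript length (up to 1578 nucleotides) the median difference was 1.51 log2 units against pyrimethamine replicate 1 and 0.38 against replicate 2. In the longest class (over 3826 nucleotides) the medians were -1.32 and -0.29. The same gradient separated the pyrimethamine libraries from each other, with replicate 2 minus replicate 1 at 1.10 in the shortest and -0.92 in the longest class. The Spearman correlation with length over 14034 genes was -0.56 against replicate 1, -0.37 against replicate 2 and -0.56 between the pyrimethamine libraries; genes of 1 library share its depth and preparation, and these are descriptions. Median transcript lengths were 749 nucleotides for the cytosolic ribosomal proteins, 750 for oxidative phosphorylation and 7328 for the large chromatin modifiers. Fitted with length as a smooth term, 4984 genes passed, 3718 of them shared with the unadjusted fit, and the medians of the same 3 lists became 0.88, 0.65 and -0.46. Among the genes described here, the calls of ABCB6, CDC25A, ESPL1, FOXM1, PSMD1, PSMD11, SLC7A11, TAP2, TOP2B, UBE2C and VARS1, and of MT2A among the metallothioneins, fell short in that fit (adjusted p from 0.0503 to 0.623). The part of length in each result was not tested further.

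**Figure D3:**
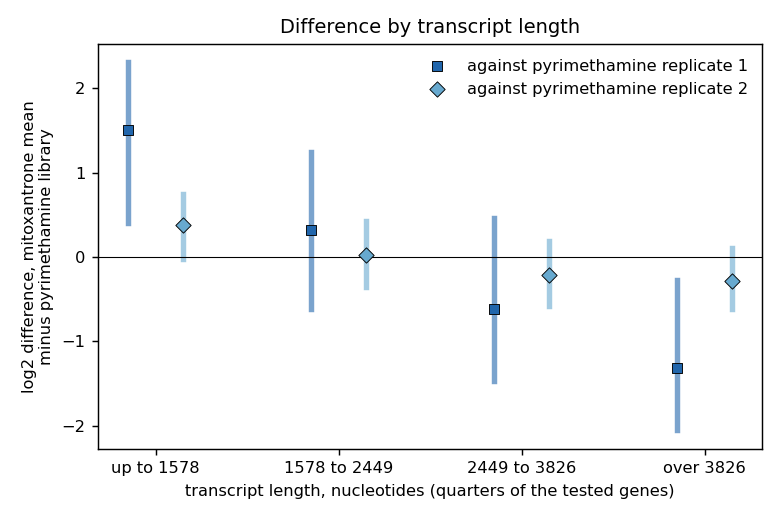
Log2 difference between the mitoxantrone mean and each pyrimethamine library by class of transcript length (4 equal classes); markers are medians and bars run from the 25th to the 75th percentile of genes. Medians fall from 1.51 to -1.32 against pyrimethamine replicate 1 and from 0.38 to -0.29 against replicate 2.

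**Figure D4:**
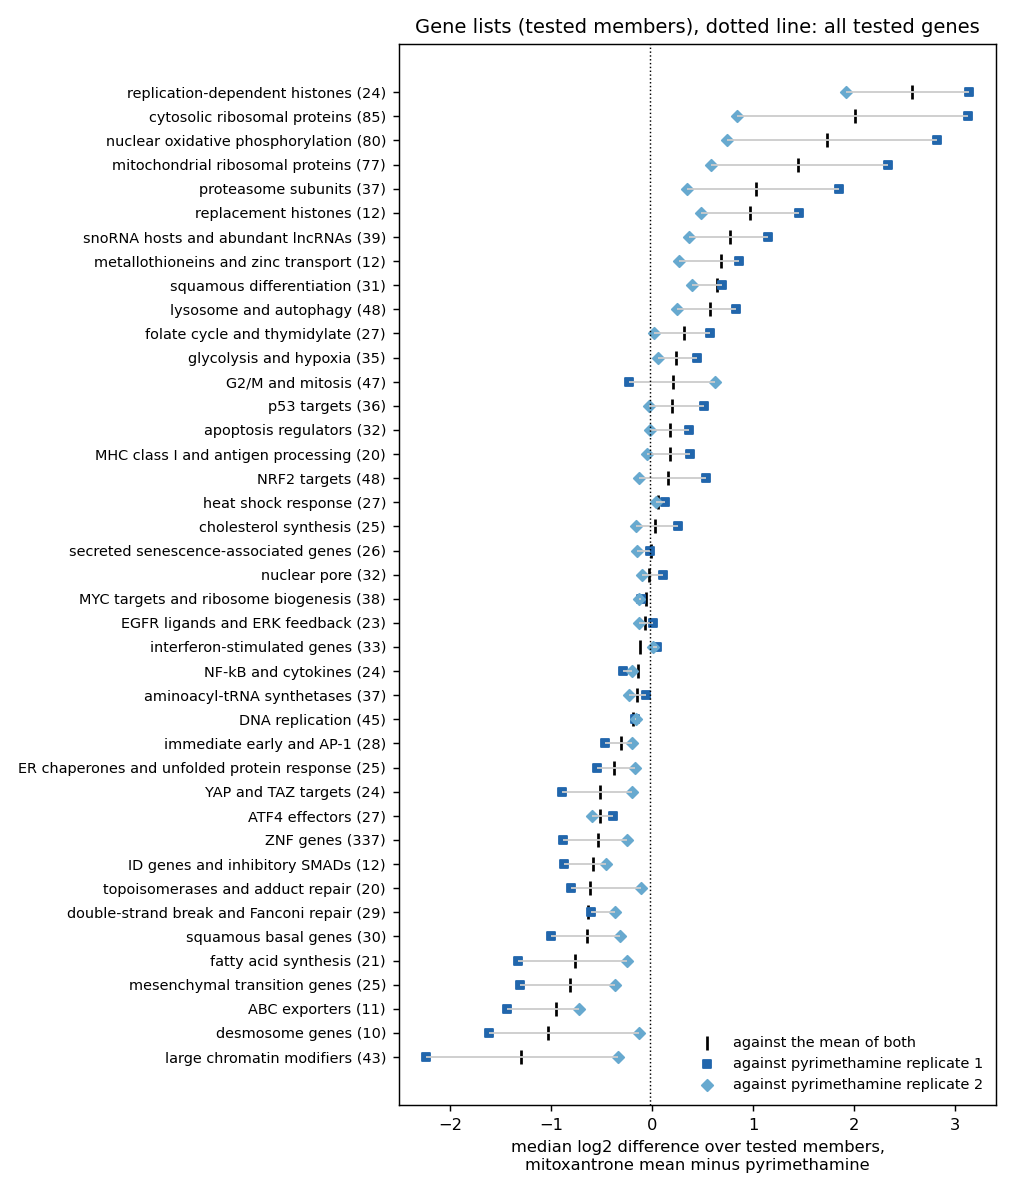
Median log2 difference of the 41 gene lists, with tested members in brackets, against pyrimethamine replicate 1 (squares), replicate 2 (diamonds) and the mean of both (ticks). Replication-dependent histones and ribosomal proteins lie at the top and large chromatin modifiers at the bottom, and the squares of both ends are farther from 0 than the diamonds.

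Genes of mitosis split by member. Of 47 tested genes of G2/M and mitosis 20 were higher (42.6%) and 3 lower (6.38%), against 21.2% and 19.9% of all tested genes. In the weighted fit 13 stayed higher. The median of the 47 was 0.21 log2 units, but -0.23 against pyrimethamine replicate 1, 0.63 against replicate 2, and -0.03 under cyclic loess. CDKN3, a phosphatase of the mitotic kinase CDK1, measured 11755, 11867 and 10240 in mitoxantrone libraries, against 550.4 and 2623 in pyrimethamine libraries and 2355 on average in untreated libraries (3.23 ± 0.53, adjusted p = 0.0173). CKS2, a small subunit bound to cyclin-dependent kinases, had 19250, 22475 and 16595 in mitoxantrone libraries, against 786 and 5568 in pyrimethamine libraries (3.20 ± 0.67, adjusted p = 0.0214). Both are among the 12 largest called differences of genes with a mean of at least 100, no overlap and no clone, locus or uncharacterised symbol.

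NEK2, a centrosome kinase, measured 3685, 3818 and 3326 in mitoxantrone libraries, against 814 and 1520 in pyrimethamine libraries (1.69 ± 0.26, adjusted p = 0.0170). UBE2C, the ubiquitin-conjugating enzyme of the anaphase-promoting complex, measured 5809, 6589 and 7272 in mitoxantrone libraries, against 1628 and 3066 in pyrimethamine libraries (1.55 ± 0.27, adjusted p = 0.0177), and with length as a term its difference was 0.39 (adjusted p = 0.106). CDC25C, the phosphatase that activates CDK1, had a difference of 1.40 ± 0.26 (adjusted p = 0.0187), with 1.82 and 0.99 against replicates 1 and 2. The 3 members that were lower, named after their values were seen, were FOXM1, a transcription factor of mitotic genes (-1.04 log2 units), ESPL1, the protease separase (-1.33), and CDC25A, the S phase phosphatase (-0.63). Against pyrimethamine replicates 1 and 2 their differences were -1.56 and -0.53 for FOXM1, -2.10 and -0.55 for ESPL1 and -0.78 and -0.48 for CDC25A. Median transcript length was 1874 nucleotides for the 20 higher members, 3723 for the 3 lower and 3622 for the 24 that did not pass. With length as a term 22 members of the list were higher and 0 lower, with a median of 0.51.

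For 15 of the 47 mitotic genes the mitoxantrone libraries lay below pyrimethamine replicate 1 and above replicate 2, a pattern of 634 tested genes in all (4.13%). CENPE, a kinesin that moves chromosomes, had 102, 128 and 162 in mitoxantrone libraries, against 780 in pyrimethamine replicate 1 and 33.9 in replicate 2. CENPF, a kinetochore protein named after its value was seen, had 338, 377 and 598 in mitoxantrone libraries, against 2782 and 203 in the pyrimethamine libraries in the same order. GCC2, a golgin, and CEP152, a centriole protein, showed the same order, with 424.8 and 466 in pyrimethamine replicate 1, 23.7 and 32.9 in replicate 2, and 28.4 to 71.7 over both genes in mitoxantrone libraries.

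The opposite order, with the mitoxantrone libraries above replicate 1 and below replicate 2, held for 774 genes (5.04%). CXCL8, the neutrophil-attracting chemokine, had 1425, 1531 and 1211 in mitoxantrone libraries, against 429 in replicate 1 and 2019 in replicate 2. AKR1C3, an aldo-keto reductase with close paralogs and thus an uncertain count, had 1996, 2018 and 1842 in mitoxantrone libraries, against 456 and 2096. SNHG19, a small nucleolar RNA host, and SLC27A5, a bile acid and fatty acid ligase, had gaps of the same direction. No direction can be given for these genes, and they were chosen for this pattern, with no test.

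Double-strand break and Fanconi repair genes were more often lower than higher, and for DNA replication genes the order depended on the setting. In the DNA replication list 9 of 45 tested members were higher (20.0%) and 13 lower (28.9%), against 21.2% and 19.9% of all tested genes. The median was -0.19. Upper-quartile scaling gave 11 higher and 10 lower (median 0.03) and the length term 5 and 9 (median 0.01), whereas quantile normalisation gave 2 and 15 and cyclic loess 8 and 18 (median -0.48 in both). LIG1, the ligase that joins Okazaki fragments, measured 130.1, 199 and 170 in mitoxantrone libraries, against 1274 and 470 in pyrimethamine libraries (-2.23 ± 0.39, adjusted p = 0.0177). CDT1, which licenses origins, measured 821, 859 and 1051 in mitoxantrone libraries, against 2121 and 1933 in pyrimethamine libraries (-1.16 ± 0.17, adjusted p = 0.0170), with both pyrimethamine libraries at nearly the same level. Of 29 genes of double-strand break and Fanconi repair 12 were lower and 4 higher (41.4% and 13.8%, against 19.9% and 21.2% of all tested genes), with a median of -0.64 that was -0.11 with length as a term. RAD54L, a helicase-like motor of recombination, had 170.5, 128 and 268 in mitoxantrone libraries, against 698 and 513 in pyrimethamine libraries (-1.73 ± 0.30, adjusted p = 0.0179), whereas UBE2T, the conjugating enzyme of the Fanconi pathway, was higher at 1.83 ± 0.39 (adjusted p = 0.0219), with 2.62 and 1.05 against replicates 1 and 2.

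Thymidylate synthase and the type II topoisomerases gave differences that depended on the setting. TYMS, the thymidylate synthase, had 77224, 74058 and 69810 in mitoxantrone libraries, against 31935 and 70829 in pyrimethamine libraries, and did not pass (0.63 ± 0.42, adjusted p = 0.237), but it was lower under quantile normalisation (-0.79, adjusted p = 0.0234) and under cyclic loess (-1.22, adjusted p = 0.0164). TOP2A, the topoisomerase of dividing cells, had 1133, 1163 and 1478 in mitoxantrone libraries, against 5082 in pyrimethamine replicate 1 and 1015 in replicate 2, so it lay below the first and above the second (adjusted p = 0.216). TOP2B, the isoform of all cells, had 138, 154 and 234 in mitoxantrone libraries, against 1414 and 258 in pyrimethamine libraries (-1.82 ± 0.60, adjusted p = 0.0423, and 0.0863 in the weighted fit). Both pyrimethamine libraries thus lay above every mitoxantrone library for TOP2B, replicate 2 by little, and without pyrimethamine replicate 1 the difference was -0.60. TOP3A, a type I enzyme, was lower, with 265, 213 and 298 in mitoxantrone libraries, against 1217 and 488 in pyrimethamine libraries (-1.59 ± 0.35, adjusted p = 0.0222, and 0.0632 in the weighted fit).

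Within the folate and thymidylate list 8 of 27 tested members were higher (29.6%) and 4 lower (14.8%), against 21.2% and 19.9% of all tested genes. The list's median of 0.32 turned to -0.17 under quantile normalisation and to -0.25 under cyclic loess. GGH, which trims glutamates from folates and antifolates in the lysosome, measured 10102, 11092 and 9196 in mitoxantrone libraries, against 885 and 3468 in pyrimethamine libraries and 1645 on average in untreated cells (2.53 ± 0.47, adjusted p = 0.0192, and 0.0302 in the weighted fit). SLC19A1, the reduced folate carrier, was lower, with 277, 297 and 288 in mitoxantrone libraries, against 828 and 534 in pyrimethamine libraries (-1.21 ± 0.21, adjusted p = 0.0177).

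ABCG2 went against the other ABC exporters. It measured 2108, 2111 and 1680 in mitoxantrone libraries, against 437 and 880.4 in pyrimethamine libraries and 349.9 on average in untreated cells. The groups did not overlap, and the difference was 1.66 ± 0.28 log2 units (adjusted p = 0.0177, and 0.0349 in the weighted fit). Of the 11 tested exporters 8 were lower (72.7%, against 19.9% of all tested genes) and 1, ABCG2, was higher. The median was -0.95 (-1.44 and -0.73 against replicates 1 and 2). Under upper-quartile scaling 4 were lower, and likewise with length as a term. ABCC1, which exports glutathione conjugates, had 354, 485 and 652 in mitoxantrone libraries, against 3344 and 1112 in pyrimethamine libraries (-1.997 ± 0.43, adjusted p = 0.0221), and ABCB6, a porphyrin transporter, had 417, 531 and 493 in mitoxantrone libraries, against 762 and 833 in pyrimethamine libraries (-0.74 ± 0.17, adjusted p = 0.0230). None of the 8 stayed lower in the weighted fit (0 of 8).

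**Figure D5:**
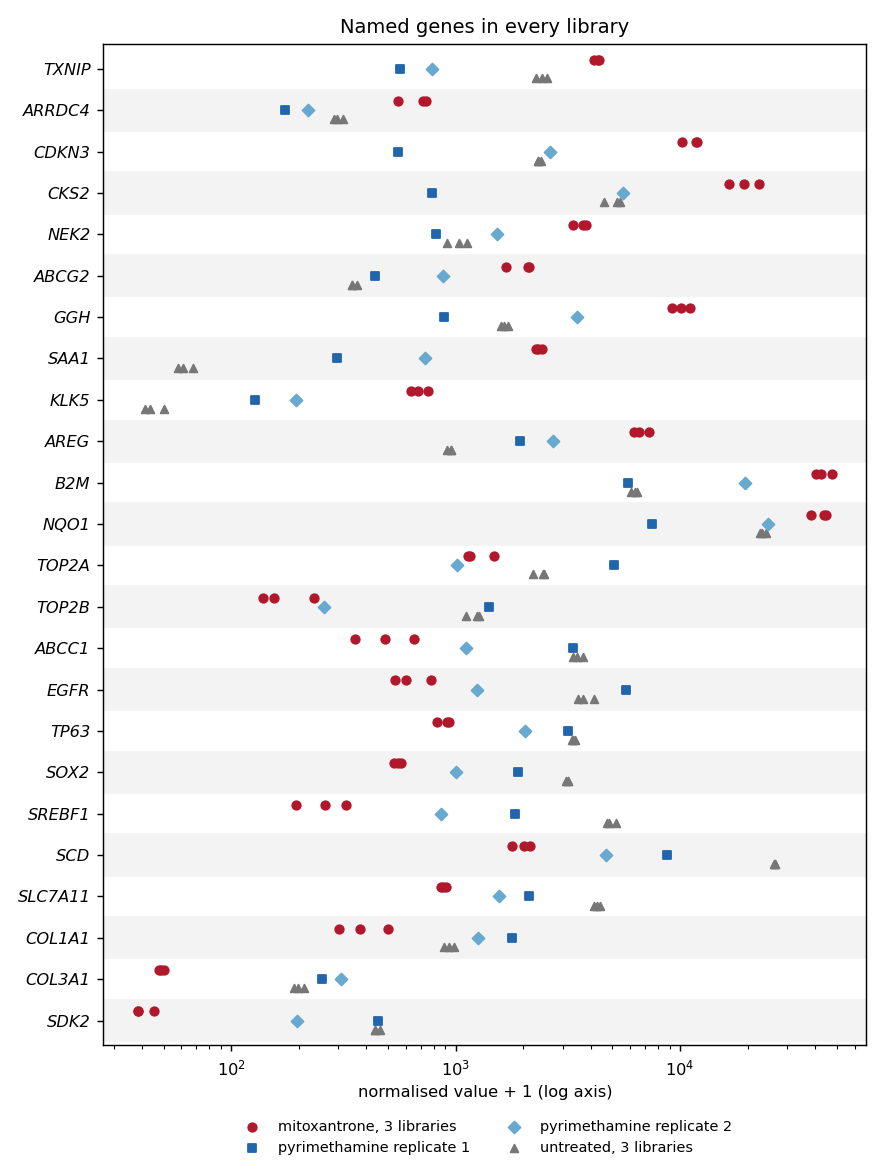
Normalised value + 1 (log axis) of 24 genes described in the text, in every library. The 3 mitoxantrone points lie apart from both pyrimethamine points for 23 of them. TOP2A is the exception, with pyrimethamine replicates 1 and 2 on either side. Of all tested genes 63.3% showed no overlap, and the naming rule favoured such genes, so the count describes these 24 only.

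Targets of p53, the factor that DNA damage stabilises, were not uniformly higher. Of 36 tested members 10 were higher (27.8%) and 2 lower (5.56%), against 21.2% and 19.9% of all tested genes. The median of 0.19 was 0.52 against pyrimethamine replicate 1, -0.03 against replicate 2 and -0.01 with length as a term. CDKN1A, the inhibitor p21, had 4299, 4139 and 4545 in mitoxantrone libraries, against 2763 and 4418 in pyrimethamine libraries (0.31 ± 0.22, adjusted p = 0.269). MDM2, the ubiquitin ligase of p53, had 2396, 2258 and 2129 in mitoxantrone libraries, against 1618 and 2149 in pyrimethamine libraries (0.28 ± 0.18, adjusted p = 0.225). Neither gene separated the compounds.

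TP53INP1, a stress protein that promotes p53 activity, did separate them, with 618, 648 and 579 in mitoxantrone libraries, against 222 and 272 in pyrimethamine libraries and 473 on average in untreated libraries (1.32 ± 0.17, adjusted p = 0.0146). TIGAR, a regulator of glycolysis, measured 2472, 2544 and 2331 in mitoxantrone libraries, against 844 and 1415 in pyrimethamine libraries (1.16 ± 0.22, adjusted p = 0.0194). RPS27L, a ribosomal protein paralog that p53 induces, measured 8438, 8788 and 7365 in mitoxantrone libraries, against 714 and 3589 in pyrimethamine libraries (2.35 ± 0.55, adjusted p = 0.0239), and it also belongs to the ribosomal list.

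The order of the compounds over NRF2 targets depended on the scaling. NFE2L2 itself had 734, 762 and 753 in mitoxantrone libraries, against 1188 and 869 in pyrimethamine libraries and 1382 on average in untreated cells, and it did not pass (-0.44 ± 0.18, adjusted p = 0.0731), though it was lower under TMM scaling (-0.56, adjusted p = 0.0453). KEAP1 had 2372, 2243 and 2246 in mitoxantrone libraries, against 2266 and 2558 in pyrimethamine libraries (-0.07 ± 0.16, adjusted p = 0.707). Of 48 tested targets 7 were higher and 12 lower, beside 21.2% and 19.9% of all genes. The median was 0.15, with 0.54 against pyrimethamine replicate 1 and -0.14 against replicate 2, and it turned to -0.42 under quantile normalisation (2 higher, 22 lower), -0.61 under cyclic loess (3 and 25) and -0.10 with length as a term (5 and 11).

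Among the targets, SLC7A11 and GCLC, which act in glutathione supply, were lower with mitoxantrone. SLC7A11, the cystine importer, had 881, 861 and 905 in mitoxantrone libraries, against 2124 and 1558 in pyrimethamine libraries and 4256 on average in untreated cells (-1.04 ± 0.18, adjusted p = 0.0177), and with length as a term the difference was -0.15 (adjusted p = 0.623). GCLC, the catalytic subunit of glutathione's first enzyme, had 1391, 1454 and 1711 in mitoxantrone libraries, against 3763 and 2317 in pyrimethamine libraries and 5901 in untreated cells (-0.96 ± 0.23, adjusted p = 0.0241). GCLM, its modifier subunit, had 1697, 1700 and 1727 in mitoxantrone libraries, against 1969 and 2295 in pyrimethamine libraries, and did not pass (-0.32 ± 0.16, adjusted p = 0.129); it was lower under TMM scaling (-0.44, adjusted p = 0.0436), and with length as a term the difference was 0.24 (adjusted p = 0.391). All 3 mitoxantrone libraries lay below both pyrimethamine libraries for each of these genes.

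HMOX1, the heme oxygenase, had 872, 832 and 959 in mitoxantrone libraries, against 1404 and 1783 in pyrimethamine libraries (-0.84 ± 0.17, adjusted p = 0.0207). OSGIN1, an oxidative stress protein, and CYP4F11, a cytochrome P450 with close paralogs, were lower at -0.98 ± 0.19 (adjusted p = 0.0192) and -1.68 ± 0.24 (adjusted p = 0.0157). Against replicates 1 and 2 the differences were -1.14 and -0.82 for OSGIN1 and -2.10 and -1.26 for CYP4F11, and of the 12 lower targets 1 kept its call in the weighted fit. NQO1, the quinone reductase, went the other way, with 43721, 44620 and 38143 in mitoxantrone libraries, against 7526 and 24546 in pyrimethamine libraries and 23305 on average in untreated cells (1.63 ± 0.46, adjusted p = 0.0301); under quantile normalisation the difference was 0.36 (adjusted p = 0.163) and under cyclic loess 0.13 (adjusted p = 0.237). TXNRD1, the thioredoxin reductase, had 20002, 19951 and 16351 in mitoxantrone libraries, against 11598 and 17227 in pyrimethamine libraries (0.40 ± 0.28, adjusted p = 0.246), but was lower under quantile normalisation (-0.82, adjusted p = 0.0348) and cyclic loess (-0.98, adjusted p = 0.0245) and higher with length as a term (0.94, adjusted p = 0.0453). AKR1B10, an aldo-keto reductase with close paralogs, had 3891, 3769 and 3461 in mitoxantrone libraries, between 2042 and 4789 in pyrimethamine replicates 1 and 2 (adjusted p = 0.5499).

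Of 21 tested fatty acid synthesis genes 8 were lower with mitoxantrone (38.1%, against 19.9% of all tested genes) and 0 higher, with a median of -0.76 (-1.33 against pyrimethamine replicate 1, -0.25 against replicate 2, -0.10 with length as a term), and 4 stayed lower in the weighted fit. SREBF1, the transcription factor of these enzymes, measured 194, 262 and 323 in mitoxantrone libraries, against 1831 and 856 in pyrimethamine libraries and 4914 on average in untreated cells (-2.29 ± 0.33, adjusted p = 0.0162). SCD, the stearoyl-CoA desaturase, measured 1775, 2022 and 2152 in mitoxantrone libraries, against 8777 and 4684 in pyrimethamine libraries and 26435 in untreated cells (-1.70 ± 0.28, adjusted p = 0.0173). FADS2, a desaturase of polyunsaturated fatty acids, measured 849, 817 and 891 in mitoxantrone libraries, against 2780 and 1846 in pyrimethamine libraries (-1.41 ± 0.20, adjusted p = 0.0164). All 3 genes were highest in untreated cells, so the compounds stood on the same side of that level.

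Cholesterol synthesis showed no common direction, with 4 of 25 members higher (16.0%) and 6 lower (24.0%), against 21.2% and 19.9% of all tested genes. The median of 0.02 turned to -0.10 under TMM scaling, to -0.04 under cyclic loess and to -0.09 with length as a term. LSS, the lanosterol synthase, and DHCR7, the enzyme of the last step, were lower at -1.15 ± 0.20 (adjusted p = 0.0181) and -0.83 ± 0.16 (adjusted p = 0.0192). Against replicates 1 and 2 the differences were -1.44 and -0.86 for LSS and -0.86 and -0.80 for DHCR7.

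In the list of basal squamous genes 11 of 30 tested members were lower with mitoxantrone (36.7%, against 19.9% of all tested genes) and 0 higher (median -0.64, with -1.005 against pyrimethamine replicate 1 and -0.32 against replicate 2), and 5 stayed lower in the weighted fit. TP63, the master regulator of squamous epithelium, measured 824, 918 and 932 in mitoxantrone libraries, against 3166 and 2030 in pyrimethamine libraries and 3349 on average in untreated cells (-1.51 ± 0.21, adjusted p = 0.0157, and 0.0311 in the weighted fit). SOX2, its partner in squamous carcinoma, measured 552, 529 and 570.3 in mitoxantrone libraries, against 1899 and 1001 in pyrimethamine libraries (-1.32 ± 0.25, adjusted p = 0.0192). ITGB4, the hemidesmosome integrin, was lower at -1.73 ± 0.33 (adjusted p = 0.0194), with -2.30 and -1.16 against replicates 1 and 2. KRT5, the basal keratin, named after its value was seen, did not pass, with 46713, 47490 and 48591 in mitoxantrone libraries, against 53000 and 48938 in pyrimethamine libraries (adjusted p = 0.817).

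Of 31 tested squamous differentiation genes, out of 59 in the table, 12 were higher (38.7%) and 4 lower (12.9%), against 21.2% and 19.9% of all tested genes. The median was 0.64, with 0.69 and 0.39 against replicates 1 and 2, and 2 were higher in the weighted fit. With length as a term the median was 0.12, with 10 higher and 5 lower. KLK5, a peptidase that sheds surface cells, measured 749, 629 and 678 in mitoxantrone libraries, against 126 and 194 in pyrimethamine libraries and 44.0 ± 4.7 in untreated cells (SD, n = 3), a difference of 2.12 ± 0.24 (adjusted p = 0.0133). SPINK6, an inhibitor of such kallikreins, measured 876, 1032 and 671 in mitoxantrone libraries, against 50.2 and 167 in pyrimethamine libraries (3.19 ± 0.54, adjusted p = 0.0175). KLK8, another kallikrein, had 1284, 1369 and 1330 in mitoxantrone libraries, against 210.1 and 566 in pyrimethamine libraries (1.94 ± 0.35, adjusted p = 0.0188). Of 10 desmosome genes 3 were lower (30.0%) and 1 higher (10.0%), against 19.9% and 21.2% of all tested genes. Among the lower ones was DSG3, the desmosomal cadherin, with 676, 633 and 663 in mitoxantrone libraries, against 4470 and 1495 in pyrimethamine libraries (-1.98 ± 0.39, adjusted p = 0.0195).

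Several collagen genes were lower with mitoxantrone. COL3A1, a fibrillar collagen, measured 49.3, 46.5 and 47.4 in mitoxantrone libraries, against 253 and 307 in pyrimethamine libraries and 199 ± 10.4 in untreated cells (SD, n = 3). Its groups lay far apart, at -2.52 ± 0.20 log2 units (adjusted p = 0.00474, 0.0399 in the weighted fit, and 0.0538 without mitoxantrone replicate 1). COL1A1 had 301, 376 and 499.7 in mitoxantrone libraries, against 1788 and 1254 in pyrimethamine libraries (-1.96 ± 0.25, adjusted p = 0.0146), and COL5A1 had a difference of -2.29 ± 0.35 (adjusted p = 0.0170), with -2.91 and -1.67 against replicates 1 and 2. COL7A1, the anchoring fibril collagen, had 196, 218 and 362 in mitoxantrone libraries, against 3415 and 749.8 in pyrimethamine libraries (-2.68 ± 0.55, adjusted p = 0.0212). Of the 25 tested mesenchymal transition genes, which hold 3 of these collagens, 8 were lower and 2 higher (median -0.81, with -1.31 and -0.37 against replicates 1 and 2). COL1A2, which makes the other chain of type I collagen, had 15.0, 18.1 and 2.21 in mitoxantrone libraries, against 4.57 and 213 in pyrimethamine libraries, and showed no common direction. Summed fibroblast markers, COL1A1 and COL3A1 among them, were 2348 to 2621 with mitoxantrone and 4339 and 3489 with pyrimethamine. In untreated cells the sums were 2364 to 2506, within the mitoxantrone range. The part of these markers in the collagen values was not tested.

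SDK2, an immunoglobulin-family adhesion protein, had the lowest difference of the called genes ranked by the naming rule. These have a mean of at least 100, no overlap and no clone, locus or uncharacterised symbol. SDK2 had 37.4, 37.4 and 44.1 in mitoxantrone libraries, against 448 and 196 in pyrimethamine libraries (-2.88 ± 0.33, adjusted p = 0.0133). CAMKK1, a kinase upstream of calmodulin kinases, followed with 41.9, 19.4 and 37.5 in mitoxantrone libraries, against 283 and 154 in pyrimethamine libraries (-2.70 ± 0.38, adjusted p = 0.0157). PPP2R2C, a regulatory subunit of protein phosphatase 2A, separated tightly with 426, 422 and 411 in mitoxantrone libraries, against 1309 and 1065 in pyrimethamine libraries (-1.49 ± 0.16, adjusted p = 0.0133). SLC1A4, a transporter of alanine, serine and cysteine, did so as well with 599.6, 559 and 600.1 in mitoxantrone libraries, against 1727 and 1437 in pyrimethamine libraries (-1.43 ± 0.16, adjusted p = 0.0133).

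The EGF receptor and its ligand amphiregulin moved apart. EGFR had 535, 599 and 773 in mitoxantrone libraries, against 5768 and 1243 in pyrimethamine libraries (-2.09 ± 0.53, adjusted p = 0.0257). AREG, the ligand, had 6535, 7272 and 6217 in mitoxantrone libraries, against 1932 and 2711 in pyrimethamine libraries and 939.5 on average in untreated cells (1.54 ± 0.19, adjusted p = 0.0146). Both kept the call in the weighted fit, at 0.0349 and 0.0302. DUSP7, a phosphatase that switches off ERK, was lower at -1.22 ± 0.30 (adjusted p = 0.0248), with -1.65 and -0.79 against replicates 1 and 2. Over the 23 tested EGFR ligand and ERK feedback genes 2 were higher (8.70%) and 4 lower (17.4%), against 21.2% and 19.9% of all tested genes. The median of -0.07 turned to 0.16 under upper-quartile scaling.

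Inflammatory and antiviral lists held single large differences and no shift of the whole. Of 24 tested NF-kB and cytokine genes 1 was higher (4.17%) and 4 lower (16.7%), against 21.2% and 19.9% of all tested genes. The median of -0.14 turned to 0.08 under upper-quartile scaling and to 0.06 under cyclic loess. SAA1, an acute-phase protein with a near-identical neighbour in SAA2 and thus an uncertain count, was the higher one, with 2285, 2433 and 2316 in mitoxantrone libraries, against 296 and 732 in pyrimethamine libraries and 61.2 on average in untreated cells (2.33 ± 0.33, adjusted p = 0.0160). NFKB1, which encodes the p50 subunit, was lower at -1.83 ± 0.41 (adjusted p = 0.0226), with -2.50 and -1.15 against replicates 1 and 2. Of 33 interferon-stimulated genes 6 were higher (18.2%) and 6 lower (18.2%). ISG20, an exonuclease, had 221, 200.1 and 204 in mitoxantrone libraries, against 26.8 and 60.7 in pyrimethamine libraries (2.34 ± 0.39, adjusted p = 0.0175), whereas STAT2, a subunit of the interferon-activated factor, had 269, 204 and 291 in mitoxantrone libraries, against 1008 and 491 in pyrimethamine libraries (-1.48 ± 0.31, adjusted p = 0.0212).

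Single components of MHC class I presentation diverged likewise. B2M, the invariant light chain, measured 42463, 47409 and 40242 in mitoxantrone libraries, against 5836 and 19466 in pyrimethamine libraries and 6278 on average in untreated cells (2.02 ± 0.45, adjusted p = 0.0223). TAP2, a subunit of the peptide transporter, and TAPBP, the loading factor tapasin, were lower at -1.18 ± 0.22 (adjusted p = 0.0191) and -1.13 ± 0.27 (adjusted p = 0.0241). Against replicates 1 and 2 the differences were -1.35 and -1.001 for TAP2 and -1.51 and -0.76 for TAPBP. Over 20 tested members 3 were higher (15.0%) and 2 lower (10.0%), against 21.2% and 19.9% of all tested genes.

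Of 27 tested ATF4 effectors, which supply amino acids under stress, 11 were lower and 2 higher with mitoxantrone (40.7% and 7.41%, against 19.9% and 21.2% of all tested genes), with medians of -0.51 for the mean of both pyrimethamine libraries, -0.39 against pyrimethamine replicate 1 and -0.60 against replicate 2, so here the distance to replicate 2 was the larger. NUPR1, a stress-induced chromatin protein, had 281, 301 and 248 in mitoxantrone libraries, against 876 and 637 in pyrimethamine libraries and 299 on average in untreated cells, so mitoxantrone stood near the untreated level (-1.43 ± 0.21, adjusted p = 0.0165). SLC7A1, the arginine and lysine carrier, had 800.0, 832 and 1119 in mitoxantrone libraries, against 3704 and 1841 in pyrimethamine libraries (-1.53 ± 0.29, adjusted p = 0.0194, and 0.0402 in the weighted fit). Of 25 genes of ER chaperones and the unfolded protein response 7 were lower (28.0%) and 1 higher, among them EDEM1, which sends misfolded glycoproteins to degradation (-1.27 ± 0.24, adjusted p = 0.0192, with -1.64 and -0.89 against replicates 1 and 2). Of 37 aminoacyl-tRNA synthetases 10 were lower (27.0%) and 2 higher, with VARS1, the valine enzyme, at -1.06 ± 0.17 (adjusted p = 0.0170, with -1.20 and -0.91 against replicates 1 and 2), and the median of -0.15 turned to 0.07 under upper-quartile scaling.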

How the data were processed

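Total RNA of KYSE70 cells was sequenced after 72 h with 20 nM mitoxantrone (n = 3 libraries) or 10 µM pyrimethamine (n = 2), or untreated (n = 3). The submitters' processing notes list STAR 2.6.90c, featureCounts 1.5.1, cutadapt 1.12 and FastQC 0.11.5 and name hg38 as build. Strand setting, annotation and the handling of multiply matching reads were not given in the sources used here; overlapping and antisense genes and near-identical copies are uncertain. The deposited values are a normalised signal: gene counts that the authors divided by size factors with DESeq2, as the deposited table's name states. All values were whole reads times 1 step per library (100% within 0.1 read), so reads were recovered. The table has 28281 genes and 0 columns of other samples.

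The test was limma 3.58.1 in R 4.3.3 on log2(value + 1), which understates changes of low genes, with group as the single term, eBayes with a trend and all 8 libraries sharing 1 spread per gene (5 residual degrees of freedom). It was two-sided, with Benjamini-Hochberg adjustment over 15350 genes and a threshold of 0.05. The contrast is mitoxantrone minus pyrimethamine; values against 1 pyrimethamine library are means minus that library. Recovered reads gave the edgeR 4.0.16 (quasi-likelihood) and DESeq2 1.42.0 alternatives. Scripts were tested on simulated data. Transcript lengths are from GENCODE 29 (91.4% of tested genes), and promoters from RefSeq.

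The members and the 41 gene lists and 5 marker lists were chosen with earlier results of these data known. Lists are described by counts and medians and were not tested as sets. Their counts are to be read beside 21.2% higher and 19.9% lower over all tested genes. Genes were named by a rule. It took the 12 highest and 12 lowest differences among called genes with a mean of at least 100 over the 5 libraries and no overlap. Clone, locus and uncharacterised symbols were left out of that ranking. The rule also took the 4 smallest adjusted p per direction, genes of the compounds and of NRF2, and the 3 or fewer best-ranked members by adjusted p in each list. Last came 4 genes per direction with mitoxantrone between the pyrimethamine libraries. Others are said to be named after their values were seen. Not every gene taken by that rule is reported here. Alternatives were other pseudocounts, filters, scalings, a length term, library weights, a replicate block and leaving out each library.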

Additional observations from a re-analysis of the deposited data

How the results depend on the processing

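The count of 6299 genes (3247 higher, 3052 lower) moved by over 1.5 times when the spread was estimated otherwise. The 5 libraries compared alone gave 0 in total, 0 higher and 0 lower by limma, with 6009 at an unadjusted p under 0.05. The weighted fit gave 884, 812 and 72. No label says that replicate numbers mark a shared culture. Correlations of deviations between mitoxantrone and pyrimethamine were -0.29 and 0.13 by the title numbers and -0.29 and -0.41 by those of the descriptions. They cannot show pairing, because with 2 pyrimethamine libraries the deviations of 1 mirror those of the other. A replicate block gave 0 calls by limma with the numbers of the titles (7359 at an unadjusted p under 0.05) and 0 with those of the descriptions (6499). Leaving out 1 library gave 0 to 11638 in total, 0 to 5832 higher and 0 to 5806 lower. The upper ends of these ranges come from the fit without pyrimethamine replicate 2, which holds no spread within that group. They cannot show how many genes differ between the compounds. Of the other settings, edgeR and DESeq2 on recovered reads gave 6713 and 8088. The difference in ribosomal protein share was 9.02 to 9.87 percentage points without 1 mitoxantrone library. That difference was 4.96 and 13.8 without pyrimethamine replicates 1 and 2. TMM and upper-quartile scaling moved the median of all genes to -0.14 and 0.20.

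Of 2855 gene values over 119 named genes and 24 settings, 2187 kept direction and side of the threshold, 622 fell short of it, 21 passed it and 25 changed sign. The changes of sign were in genes that did not pass as reported, but several values of the other sign passed: TYMS and TXNRD1 under both normalisations below, AKR1B10 and CDKN1A under cyclic loess (adjusted p = 0.0182 and 0.0497), and MDM2 with length as a term (0.0278). The fits without 1 pyrimethamine library are counted among these settings. They hold no spread within that group, so their p-values are not printed. Under quantile normalisation they were AKR1B10 (-0.23), CDKN1A (-0.26), MDM2 (-0.0369), TXNRD1 (-0.82) and TYMS (-0.79); under cyclic loess AKR1B10 (-0.60), CDKN1A (-0.37), MDM2 (-0.20), TXNRD1 (-0.98) and TYMS (-1.22). Under upper-quartile scaling they were KEAP1 (0.15) and KRT5 (0.13). With length as a term they were AKR1B10 (-0.18), GCLM (0.24), H2AC20 (-0.66), KEAP1 (0.20), KRT5 (0.0606), MDM2 (-0.73) and TYMS (-0.0134). Leaving out 1 library gave ranges of -0.37 to 0.86 for AKR1B10, -0.0307 to 0.65 for CDKN1A, -2.71 to 1.06 for CENPF, -0.35 to 1.94 for H2AC20, -0.16 to 0.0123 for KEAP1 and -2.02 to 0.30 for TOP2A. Of the called genes described, CDC25A, ESPL1, PSMD1 and PSMD11 fell short under upper-quartile scaling, CDC25A, ESPL1, F3, NQO1, PSMA4 and TOP2B under quantile normalisation, and CDC25A, ESPL1, F3, MT2A, NQO1 and TOP2B under cyclic loess. The cause was not tested. With 2 pyrimethamine libraries the spread of that group is itself poorly known, which limits every adjusted p here; counting error is small beside it for abundant genes.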

Other observations

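Lysosome and autophagy genes were higher for 17 of 48 tested members (35.4%) and lower for 7 (14.6%) with mitoxantrone, against 21.2% and 19.9% of all tested genes. The median difference was 0.57 log2 units (0.83 against pyrimethamine replicate 1, 0.25 against replicate 2). The counts were 5 higher and 6 lower under quantile normalisation (median 0.21) and 13 and 9 under cyclic loess (median 0.145), so their order depended on the scaling. GABARAPL2, a ubiquitin-like protein of autophagosomes, had 6409, 6966 and 5855 in mitoxantrone libraries, against 637 and 2507 in pyrimethamine libraries (2.34 ± 0.47, adjusted p = 0.0207). TFEB, the transcription factor of lysosome genes, was lower, with 35.9, 38.7 and 41.9 in mitoxantrone libraries, against 106 and 107 in pyrimethamine libraries (-1.44 ± 0.22, adjusted p = 0.0170). Of 12 genes of metallothioneins and zinc transport 4 were higher and 2 lower. MT1X, a metallothionein with near-identical relatives and an uncertain count, had 7287, 8724 and 8108 in mitoxantrone libraries, against 1080.2 and 3116 in pyrimethamine libraries (2.13 ± 0.38, adjusted p = 0.0184). MT2A, the main metallothionein of most cells, had 12645, 14044 and 15836 in mitoxantrone libraries, against 4056 and 7223 in pyrimethamine libraries (1.38 ± 0.27, adjusted p = 0.0195), and with length as a term its difference was 0.20 (adjusted p = 0.402).

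Of 39 small nucleolar RNA hosts and abundant long noncoding RNAs 16 were higher (41.0%) and 3 lower (7.69%, median 0.77). The counts of this and the following lists stand beside 21.2% higher and 19.9% lower of all tested genes. GAS5, a host gene whose spliced RNA is cleared by nonsense-mediated decay, had 3252, 4118 and 3232 in mitoxantrone libraries, against 418 and 1243 in pyrimethamine libraries (2.28 ± 0.39, adjusted p = 0.0177), and SNHG1 had 2950.3, 3309 and 2810 in mitoxantrone libraries, against 663 and 1199 in pyrimethamine libraries (1.76 ± 0.25, adjusted p = 0.0157). BAMBI, a decoy receptor of TGF-beta, was the member of the list of ID genes and inhibitory SMADs that was higher (1.19 ± 0.21, adjusted p = 0.0182, with 1.53 and 0.86 against replicates 1 and 2), while 5 of 12 were lower, among them SMAD6, an inhibitor of BMP signals (-1.39 ± 0.27, adjusted p = 0.0192, with -1.74 and -1.05). BID, a BH3-only death protein, and DIABLO, which frees caspases, were 2 of the 8 higher apoptosis regulators among 32, with 3 lower, at 1.57 ± 0.34 (adjusted p = 0.0222) and 1.67 ± 0.40 (adjusted p = 0.0241). Against replicates 1 and 2 the differences were 2.23 and 0.90 for BID and 2.49 and 0.84 for DIABLO. CENPA, the centromeric histone, was 1 of 7 higher replacement histones among 12, with 1 lower (1.61 ± 0.35, adjusted p = 0.0221, with 2.32 and 0.91 against replicates 1 and 2), and the list's median of 0.97 was 0.05 with length as a term.

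Counts near those of all tested genes, at 21.2% higher and 19.9% lower, were found in the lists of the heat shock response (5 higher and 3 lower of 27), MYC targets and ribosome biogenesis (6 and 8 of 38), secreted senescence-associated genes (4 and 5 of 26), the nuclear pore (5 and 8 of 32) and topoisomerases and adduct repair (3 and 6 of 20). Under cyclic loess the heat shock list had 4 higher and 11 lower with a median of -0.78, against 0.06 as deposited, and MYC targets had 4 and 11 (0 and 7 under quantile normalisation). Immediate early and AP-1 genes had 2 higher and 5 lower of 28, with EGR1, a growth factor response gene, at 109, 105 and 138 in mitoxantrone libraries, against 369 and 217 in pyrimethamine libraries (-1.28 ± 0.26, adjusted p = 0.0205). YAP and TAZ targets had 1 higher and 6 lower of 24. F3, the tissue factor, was the higher one, with 3321, 3342 and 3399.7 in mitoxantrone libraries, against 2102 and 1987 in pyrimethamine libraries (0.71 ± 0.15, adjusted p = 0.0220); under quantile normalisation its difference was 0.26 (adjusted p = 0.272). Of the marker lists, 3 of 5 tested glandular epithelium markers were higher. Their list's summed values were 27650 to 28280 with mitoxantrone, 15290 and 17090 with pyrimethamine replicates 1 and 2, and 17340 to 17840 in untreated cells. Squamous markers had 0 higher and 5 lower of 15, fibroblast markers 0 and 3 of 6, and 1 leukocyte and 2 endothelial markers were tested, with 0 called.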
